A study of Mus musculus with 104 samples.

Results

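Heme breakdown and iron handling were followed in mouse lung through 7 genes, Hmox1, Hmox2, Blvra, Blvrb, Fth1, Slc40a1 and Tfrc. All probe sets annotated to 1 of these symbols alone were taken, which gave 14 of the 22690 probe sets on the array. Of the 14, 11 are ordinary probe sets and entered the test across 22626 probe sets, and 3 are array controls for Tfrc. Expression was measured on Affymetrix chips in whole mouse lung. Lungs were exposed to phosgene (CG), an industrial gas that reacts with proteins and lipids of the airways. The 52 numbered lungs, each on 2 chips, formed 17 groups. One group was 3 untreated lungs. At each of the 8 times 3 lungs had been exposed to phosgene and 3 to air, with 4 air lungs at 48 h. The times are labelled 0.5, 1, 4, 8, 12, 24, 48 and 72 and the phosgene amount 32 mg, and hours are the unit known for the study. The labels give no strain, age or genotype that separates the groups, and whether each number stands for its own animal is not said in them, so p-values measure only the spread between numbered lungs.

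Heme oxygenase opens the heme ring and releases iron, carbon monoxide and biliverdin, and biliverdin reductase turns biliverdin into bilirubin. The freed iron is stored in ferritin or leaves the cell through ferroportin, while transferrin receptor brings iron in. Hmox1 is the stress-inducible heme oxygenase, held down by the repressor Bach1 and switched on by the factor Nrf2 with small Maf proteins, and the lung meets heme from red cells when its capillaries leak.

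The deposited values are intensities that the authors had brought to 1 trimmed mean, and the median probe set of a chip had 68.2 to 90.1 units. All 10 lung markers had at least 282 units in every lung, and the surfactant gene Sftpc had 4638 to 9230. One chip of the third air lung at 72 h has chip settings that name another mouse tissue, but its Sftpc intensity was 5399 against 5927 on the other chip of that lung. The first air lung at 1 h had 303 units of the lymphocyte gene Rag1, against a median of 5.72 over all lungs. It also had 707.5 units of the fat gene Adipoq, against a median of 71.3. Both genes had been listed as markers of other tissue caught in dissection. In whole tissue, fewer cells of a type and less RNA per cell cannot be told apart.

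The 11 probe sets were compared between phosgene and air lungs at each of the 8 times, which makes 88 comparisons. Of these, 11 passed an adjusted p under 0.05 in limma, all of them higher in phosgene lungs and 0 lower. They belonged to 3 genes, Hmox1, Blvrb and Slc40a1. Called members numbered 1 of 11 at 0.5 h, where 0.217% of all probe sets were called, and 1 at 1 h, where 0.729% were. They numbered 3 at 4 h, against 3.82% of all probe sets, and 3 at 8 h, against 6.11%. At 12 h 2 were called, against 1.42% of all probe sets, and at 24 h 1, against 1.29%. At 48 and 72 h 0 of 11 were called in limma, while 4.23% and 2.86% of all probe sets were. At 48 h 3 of the 11 and at 72 h 1 had an unadjusted p under 0.05. The median log2 change of the 11 probe sets lay between -0.01 and 0.19 over the 8 times, and that of all probe sets between -0.07 and 0.01.

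The phosgene and air lungs did not overlap in 2, 2, 4, 5, 2, 3, 1 and 2 of the 11 probe sets at the 8 times in order. The shares of all probe sets whose groups did not overlap were 6.79%, 10.4%, 22.4%, 20.2%, 19.6%, 17.8%, 14.7% and 17.2%. In all but 1 of these cases, Blvra at 8 h, the phosgene lungs were the higher ones.

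**Figure D1:**
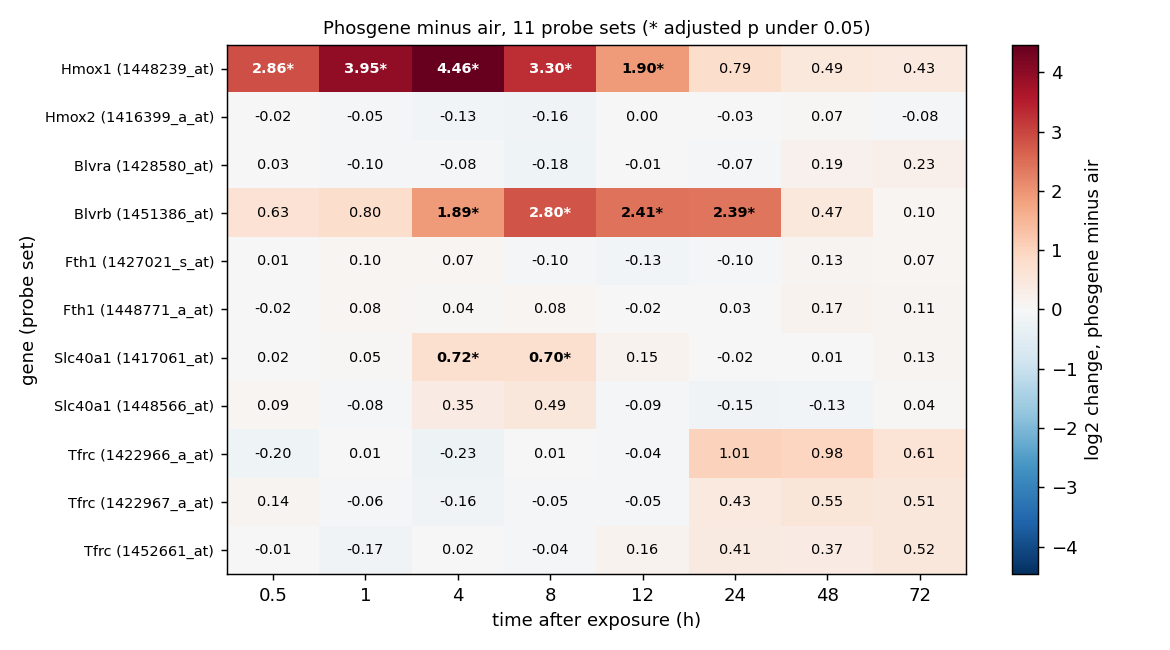
Log2 change in intensity, phosgene minus air lungs, for the 11 probe sets (rows) at the 8 times in h (columns), with an asterisk where the adjusted p was under 0.05. The Hmox1 row holds values from 0.44 to 4.46 with its highest at 4 h, and the Blvrb row has its highest value, 2.80, at 8 h.

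Hmox1, the inducible heme oxygenase, rose within the first 0.5 h and stayed called until 12 h. In the 25 air lungs its intensity lay between 42.75 and 93.6 units with a median of 64.55, and the untreated lungs had 102, 75.25 and 84.5. The phosgene lungs of 0.5 h had 319, 601 and 692 units. Those of 1 h had 1203, 969 and 1369 units, and those of 4 h 1595, 1727 and 1381. Every one of these 9 lungs stood above every air and untreated lung.

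The log2 change at 0.5 h was 2.86 ± 0.30 (SE), with an adjusted p of 5.01e-08 in limma. It was 3.95 at 1 h (adjusted p = 4.9e-12) and 4.46 at 4 h (adjusted p = 2.54e-13), both with limma. Without the first air lung of 1 h, the change at 1 h was 3.82 (limma adjusted p = 7.33e-10). In the order of group means of intensity, 4 h was the highest with 1568 ± 174 units (SD, n = 3), followed by 1 h with 1181 ± 201. Neither the difference of the log2 changes between 0.5 and 1 h (1.09 ± 0.43 SE, adjusted p = 1 in limma) nor that between 1 and 4 h (0.51 ± 0.43, adjusted p = 0.887) passed the test.

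At 8 h the phosgene lungs split, with 1597 units in 1 lung and 583 and 607 in the others. The log2 change was 3.30 (limma adjusted p = 2.32e-10), and 2.84 without the bright lung. The summed intensity of the 11 measured neutrophil genes in these lungs was 4842, 3648 and 1357 units, against 808 to 931 in the air lungs, and 5 of the 11 were called higher. At 4 h, where Hmox1 was highest, the sum was 1353 to 3063 units in phosgene and 738 to 1063 in air lungs, with 3 of the 11 called higher. At 1 h the sum was 968 to 1088 units in phosgene and 838 to 1024 in air lungs, with 0 of 11 neutrophil genes called in limma. The summed intensity of 13 measured macrophage genes at 4 h was 10875 to 13761 units in phosgene and 10500 to 12364 in air lungs. At 8 h it was 10497 to 12432 units in phosgene and 12186 to 15533 in air lungs. Of the 13, 0 were called at 4 h and 1 was called higher at 8 h in limma. The part of neutrophils or macrophages in the Hmox1 change was not tested at any time.

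At 12 h the phosgene lungs had 348.5, 74.05 and 269 units of Hmox1, and the second lung was the lowest, still above the air lungs of 42.75 to 49.1. Over the 726 probe sets raised at 8 h, the median log2 values of the 3 lungs were 0.59, 0.26 and 0.39 above the air mean of 12 h. The log2 change of Hmox1 was 1.90 (limma adjusted p = 0.000161), and without the second lung 2.51 (adjusted p = 3.18e-08). With or without that lung 2 of the 11 members were called at 12 h. The air lungs of 12 h were themselves the lowest group, at 45.6 ± 3.24 units (SD, n = 3), and the chips of the third of these lungs differed by 1.84 on the log2 scale. Against the untreated lungs the 12 h change was 1.04 with a limma adjusted p of 0.0579, so the call at 12 h depends on the control group, and 2.2% of all probe sets passed there. With the 2 groups of 12 h fitted alone it was lost as well, with an adjusted p of 0.131.

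From 24 h on Hmox1 was not called. The phosgene lungs of 24 h had 136, 135 and 166 units against 74.25 to 81.3 in air, those of 48 h 97.2, 106 and 104.5 against 64.55 to 72.0, and those of 72 h 88.25, 119 and 133 against 69.85 to 90.3. The groups of 24 and 48 h did not overlap and those of 72 h did. The log2 changes were 0.79, 0.49 and 0.44 with adjusted p-values in limma of 0.271, 0.441 and 0.61. With the 2 groups of 24 h fitted alone the 24 h change passed (limma adjusted p = 0.0364), under 1 of 17 alternatives. The change of the phosgene effect over the 8 times passed an F test for Hmox1 (adjusted p = 7.82e-10, limma), as it did for 2.74% of all probe sets.

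Hybridization days, which the chip settings give, held lungs of several groups. Within single days the Hmox1 difference was positive on every day that held both groups of a time. It ran from 1.83 to 3.36 over 5 days at 0.5 h, from 3.86 to 4.51 over 4 days at 1 h, and from 4.16 to 4.81 over 2 days at 4 h. At 8 h it was 2.31 and 2.73, and at 12 h 2.10 and 2.36. Each of these differences rests on 1 phosgene chip. At 0.5 and 1 h the days outnumber the 3 phosgene lungs, so days are not separate lungs. At 4, 8 and 12 h the 2 phosgene chips cover at most 2 of the 3 phosgene lungs. They may come from 1 lung, so the 2 days are not separate support.

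**Figure D2:**
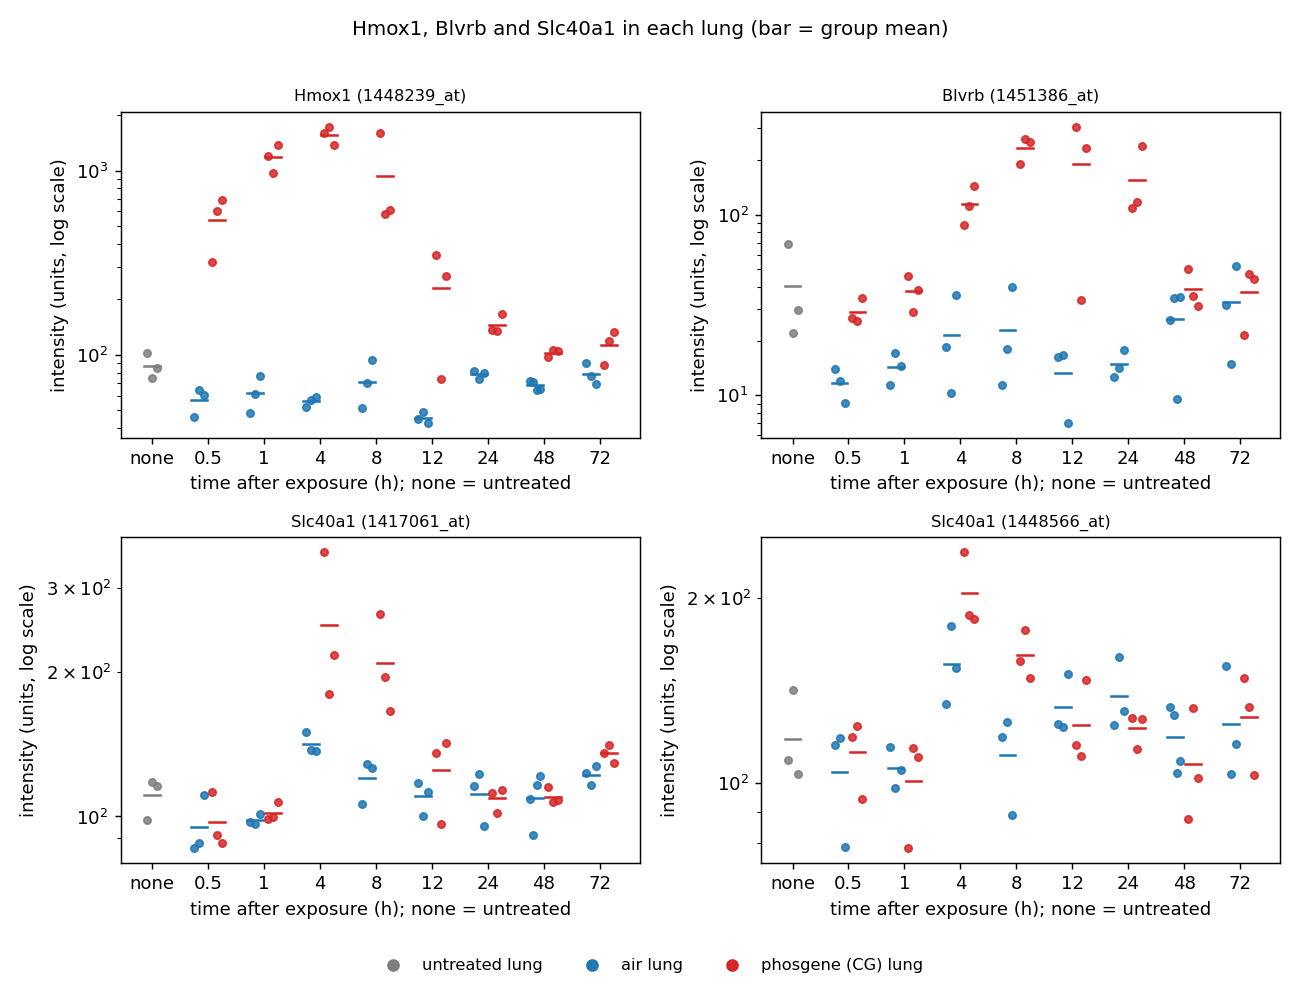
Intensity in units on a log scale for each lung, by time in h, with untreated lungs in grey, air lungs in blue, phosgene lungs in red and a bar at each group mean. Hmox1 reached 1727 units at 4 h, Blvrb 306 at 12 h, and the Slc40a1 probe sets 356 and 237 at 4 h.

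Hmox2, the constitutive heme oxygenase, was not called at any time. Its intensity was 193 to 288 units in air lungs with a median of 240, 219 to 306 in untreated lungs, and 187 to 318 with a median of 230 in phosgene lungs. The groups overlapped at all 8 times. Its log2 changes lay between -0.16 and 0.07, and the 95% intervals of the 8 changes between -0.44 and 0.33, so that a change as large as that of Hmox1 up to 12 h lay outside them.

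The biliverdin reductases are encoded by Blvra and Blvrb, and Blvrb also reduces flavins. The first listed start site of each is shown, as the pair of which 1 was called and 1 was not. The 250 bases before each start, from RefSeq on the plus strand of GRCm38.p6, lie at chr7:27447728-27447977 for Blvrb and chr2:127070407-127070656 for Blvra. Capitals mark a match to TGACNNNGC, the core of the antioxidant response element that Nrf2 and small Maf proteins bind, or to TGAGTCA, an AP-1 site, both searched on both strands.
Blvrb: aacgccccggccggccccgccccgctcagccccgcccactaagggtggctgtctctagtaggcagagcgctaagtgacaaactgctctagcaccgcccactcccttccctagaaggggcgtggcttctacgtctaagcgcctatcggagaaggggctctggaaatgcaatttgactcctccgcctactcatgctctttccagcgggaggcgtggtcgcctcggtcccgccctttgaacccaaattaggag
Blvra: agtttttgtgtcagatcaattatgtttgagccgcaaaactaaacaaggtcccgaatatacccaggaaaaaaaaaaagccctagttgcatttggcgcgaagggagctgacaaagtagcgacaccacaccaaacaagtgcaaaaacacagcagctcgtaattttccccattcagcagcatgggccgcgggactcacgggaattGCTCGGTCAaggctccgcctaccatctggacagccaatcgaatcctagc
The Blvra window holds 1 match, GCTCGGTCA on the other strand, 49 to 41 bases before the start, and the Blvrb window holds 0. Over the same length, 10.2% of 32851 RefSeq promoter windows held the first motif and 4.46% the second. The window of a second Blvrb start site, at chr7:27452168-27452417, is not printed and held no match either. A match describes letters and not a bound site. Of the 7 genes, 5 are in that table, with 10 windows in all. Hmox1 and Slc40a1 are the other two.

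Blvrb rose at 4, 8, 12 and 24 h, and was not called at 0.5 and 1 h, when Hmox1 was. Its probe set was dim in controls, with 7.05 to 51.9 units in air lungs (median 16.4) and 68.95, 22.2 and 29.65 in untreated lungs. The 2 chips of a lung differed by a median of 0.50 on the log2 scale, and the values were near the offset of 16 that was added before the log2. The sizes of its changes depend on that offset, and at 8 h they were 3.62 with an offset of 1 and 1.79 with 64.

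The phosgene lungs of 4 h had 88.05, 112 and 143 units of Blvrb, above the air lungs of 10.25 to 36.0. Those of 8 h had 191.5, 261 and 251 units against 11.45 to 39.8, and those of 24 h 108.5, 118 and 240 against 12.65 to 17.8. In these 3 comparisons the groups did not overlap. The log2 change was 1.89 ± 0.40 (SE) at 4 h (limma adjusted p = 0.00291), 2.80 at 8 h (adjusted p = 5.23e-06) and 2.39 at 24 h (adjusted p = 0.000315).

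At 12 h the phosgene lungs of Blvrb had 306, 33.55 and 234.5 units, and the low value was again that of the second lung. The log2 change was 2.41 (limma adjusted p = 0.000276) with it and 3.30 (adjusted p = 7.53e-09) without it. Fitted on the groups of 12 h alone, the call was lost (adjusted p = 0.165). At 4 h it was lost on chip B alone (adjusted p = 0.0853) and against untreated lungs (adjusted p = 0.0542).

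At 0.5 and 1 h all phosgene lungs lay above the air lungs, with 25.75 to 34.4 against 9.1 to 13.95 units and 28.95 to 45.9 against 11.4 to 17.2. These changes, 0.63 and 0.80, did not pass the test (limma adjusted p = 1 and 0.681). At 48 and 72 h the groups overlapped and the changes were 0.47 and 0.10. The Blvrb effect changed over the 8 times (F test in limma, adjusted p = 0.00235), while its largest step between neighbouring times, from 24 to 48 h, was -1.92 ± 0.55 (SE) and had a limma adjusted p of 0.414. In the order of mean intensity the phosgene groups ran from 8 h with 235 ± 37.7 units (SD, n = 3) to 12, 24 and 4 h with 191.5, 155.5 and 115, which overlapped their neighbours. The place of 12 h rests on its second lung, without which its log2 change of 3.30 was above the 2.80 of 8 h. Within hybridization days the 8 h difference was 1.35 and 3.49, and the 24 h difference ran from 1.97 to 3.13 over 4 days. Each of these days held 1 phosgene chip of the time, so days are not separate lungs.

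Blvra was not called at any time. Its intensity was 106 to 176 units in air lungs (median 143), 132 to 151 in untreated lungs and 102.5 to 181 in phosgene lungs (median 133). At 8 h the phosgene lungs, with 138, 109 and 123 units, lay below the air lungs of 143 to 146, and the log2 change was -0.18 (limma adjusted p = 0.465). The 95% intervals of its 8 changes lay between -0.43 and 0.48.

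**Figure D3:**
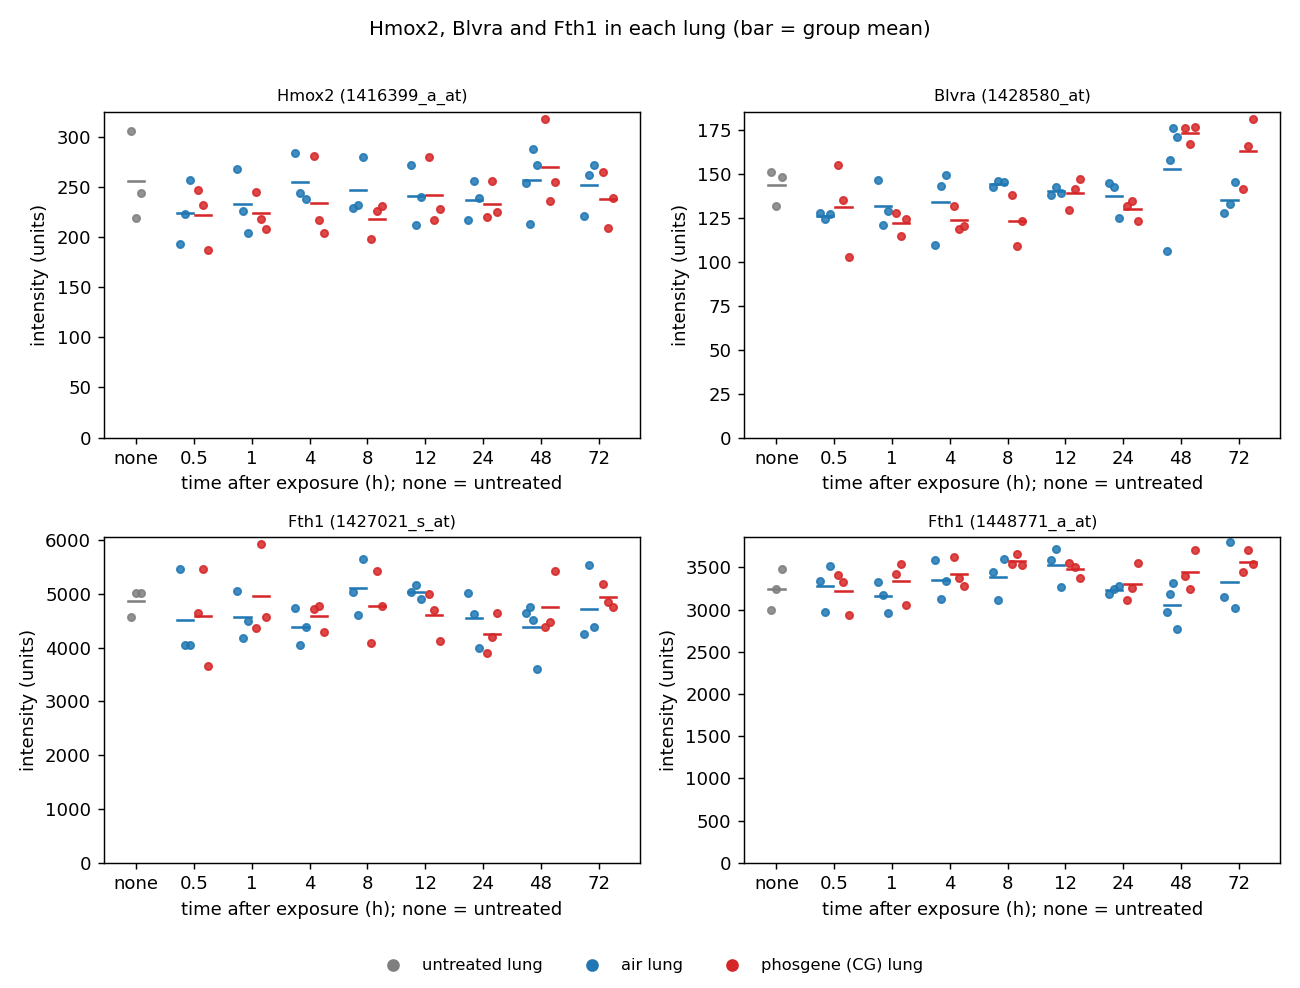
Intensity in units on a linear scale from 0 for each lung, by time in h, for Hmox2, Blvra and the 2 Fth1 probe sets, with untreated lungs in grey, air lungs in blue, phosgene lungs in red and a bar at each group mean. None of the 4 probe sets was called at any time in limma, and the smallest adjusted p-values were 0.598, 0.428, 0.723 and 0.351.

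Fth1, the heavy chain of ferritin with the activity that oxidizes iron for storage, was among the brightest features of the array, with 99.8% or more of probe sets dimmer. Its probe set 1427021_s_at had 3594 to 5646 units in air lungs and 3667 to 5935 in phosgene lungs. Its probe set 1448771_a_at had 2770 to 3807 and 2937 to 3708. The untreated lungs had 4572 to 5013 and 2998 to 3487 units, and the groups overlapped at every time on both probe sets.

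The log2 changes of Fth1 lay between -0.13 and 0.17 over both probe sets and all 8 times. The 95% intervals reached from -0.42 to 0.39 on the first and from -0.21 to 0.35 on the second. The largest change, 0.17 at 48 h on 1448771_a_at, had a limma adjusted p of 0.351.

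Slc40a1 encodes ferroportin, the iron exporter of the cell membrane. On probe set 1417061_at the phosgene lungs of 4 h had 356, 180 and 217 units, against 150, 137.5 and 137 in air, and those of 8 h had 264, 196 and 166, against 106, 128 and 126.5. Untreated lungs had 98.35, 118 and 116 units. The groups did not overlap at either time, and 1 phosgene lung at each time was well above the others.

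The log2 change of 1417061_at was 0.72 ± 0.15 (SE) at 4 h (limma adjusted p = 0.00263) and 0.70 ± 0.15 at 8 h (adjusted p = 0.00217). Without the highest phosgene lung the change was 0.45 (adjusted p = 0.0753) at 4 h and 0.53 (adjusted p = 0.0621) at 8 h, so each call rests on 1 lung. Both were also lost when the groups of the time were fitted alone, with adjusted p-values of 0.136 and 0.129. Those highest lungs also had the highest neutrophil sums of their groups, 3063 units at 4 h against 1353 and 2098, and 4842 at 8 h against 3648 and 1357, and the part of neutrophils in the change was not tested. At the other 6 times the log2 changes lay between -0.02 and 0.15.

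The second Slc40a1 probe set, 1448566_at, had 237, 188 and 185 units in the phosgene lungs of 4 h, against 135, 180 and 154 in air, and 158, 177 and 148 at 8 h, against 119, 126 and 88.8. The groups did not overlap, but the log2 changes of 0.35 and 0.49 did not pass the test (limma adjusted p = 0.242 and 0.0666). The 8 h change passed under 7 of 17 alternatives, with adjusted p-values from 0.013 with median centring to 0.0445 with the dim 40% of probe sets left out, and under 0 of the 6 that left out single lungs. Some of these passes came from fits of single chips, with a correlation shared by all probe sets, and are not added support. Within hybridization days the differences of 1448566_at were 0.35 and 0.81 at 4 h and 0.41 and 0.89 at 8 h, and those of 1417061_at 1.04 and 1.54 at 4 h and 0.25 and 0.45 at 8 h. Each of these days held 1 phosgene chip of the time, so they are not separate support. Both 4 h differences of 1417061_at exceeded the 0.72 of the whole groups, and both may come from the highest phosgene lung. The air lungs of 4 h had the highest mean of the air groups on both probe sets, 141.5 and 156 units. Against untreated lungs they differed by 0.31 and 0.37 on the log2 scale (limma adjusted p = 0.379 and 0.336), and the phosgene lungs of 4 h by 1.03 and 0.72 (adjusted p = 1.25e-05 and 0.00595). In that comparison 4.06% of all probe sets were called.

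Tfrc encodes transferrin receptor 1, which takes up iron-loaded transferrin and is abundant in dividing cells and red cell precursors. Its brightest probe set, 1452661_at, had 525, 727 and 541 units in the phosgene lungs of 24 h against 400 to 496 in air, and 640, 716 and 762 at 72 h against 473 to 503. At 48 h the phosgene lungs had 689, 613.5 and 662 units, and the air lungs 426 to 624. The groups overlapped at 48 h and did not at 24 and 72 h.

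The log2 changes of 1452661_at at 24, 48 and 72 h were 0.41, 0.37 and 0.52, each with an unadjusted p under 0.05 and limma adjusted p-values of 0.355, 0.255 and 0.113. With the chip letter as a replicate block the 72 h change passed (adjusted p = 0.00684), and with hybridization day as a term those of 24 and 48 h did (adjusted p = 0.0426 and 0.0224). With the letter of the chip title as the block, those of 48 and 72 h passed (adjusted p = 0.0492 and 0.00635). These fits took single chips, with a correlation shared by all probe sets, so such passes are not added support. At the 5 earlier times the log2 changes of 1452661_at lay between -0.17 and 0.16. The summed intensity of 9 genes of dividing cells was 1383 to 1804 units in the phosgene lungs of 48 h against 382 to 755 in air, and 1450 to 1697 at 72 h against 493 to 770, with 9 and 6 of the 9 called higher. At 24 h it was 583 to 719 against 504 to 586, with 0 of 9 called in limma. The red cell sum of 8 genes was lower in phosgene lungs at 48 h, 522 to 692 against 1003 to 1417 units, and at 72 h, 389 to 419 against 1038 to 1151. A large part of this sum and its fall was 1 gene, Alas2 of heme synthesis. Its mean was 340 units in phosgene and 653 in air lungs at 48 h, and 173 and 673 at 72 h. At each of these times 3 of the 8 were called lower in limma. The red cell sum also stood apart earlier, in both directions. At 4 h it was higher, 1266 to 1496 units in phosgene against 976 to 1172 in air lungs. At 8 h it was lower, 923 to 1081 against 1233 to 1585. At 4 and 8 h 0 of the 8 were called in limma. The part of either cell type in the Tfrc values was not tested.

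Probe sets 1422966_a_at and 1422967_a_at differed widely between lungs of a group. On the first, the phosgene lungs of 48 h had 78.65, 244 and 182 units and those of 72 h 174.5, 271 and 63.25, against 48.8 to 107 and 53.7 to 118 in air. The groups overlapped at every time. The log2 changes of 1422966_a_at at 24, 48 and 72 h were 1.01, 0.98 and 0.61 (limma adjusted p = 0.285, 0.145 and 0.559), and those of 1422967_a_at 0.43, 0.55 and 0.51 (adjusted p = 0.636, 0.254 and 0.392). The first passed at 24 h with the replicate block (adjusted p = 0.0494). At 48 h it passed with the replicate block (0.0211), day (0.0433), the title letter (0.0237) and array weights (0.012), and the second passed with array weights (0.0326). Apart from array weights, these were the fits of single chips.

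Within hybridization days the Tfrc probe sets differed in sign at 72 h. On the 2 days that held both groups, the difference was -0.93 and -0.58 on 1422966_a_at and -0.66 and -0.52 on 1422967_a_at, against 0.62 and 0.66 on 1452661_at. At 48 h it ran from -0.84 to 2.39 over 3 days on 1422966_a_at, with the phosgene chips higher on 2 of the 3. At 24 h it ran from -0.60 to 1.84 over 4 days, with the phosgene chips higher on 3. On 1452661_at the phosgene chips were higher on all such days at 24, 48 and 72 h. Each day held 1 phosgene chip of the time. Both air chips of 72 h on these days were of the first air lung, so the 2 days are not separate air lungs. The whole-group changes at 72 h were 0.61, 0.51 and 0.52 on 1422966_a_at, 1422967_a_at and 1452661_at.

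The 3 array-control probe sets for Tfrc were added to the fit as an alternative chosen after the values were seen, and 0 of them was called in limma at any time. The control at the 3' end had 40.3, 86.65 and 71.4 units in the phosgene lungs of 48 h against 21.05 to 50.2 in air. The log2 change was 0.81 (limma adjusted p = 0.0802), and the groups of 48 h overlapped. At 24 h the groups of this control did not overlap, with 57.65 to 96.2 units in phosgene lungs against 28.35 to 52.15 in air. The log2 change at 24 h was 0.74 (limma adjusted p = 0.286).

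**Figure D4:**
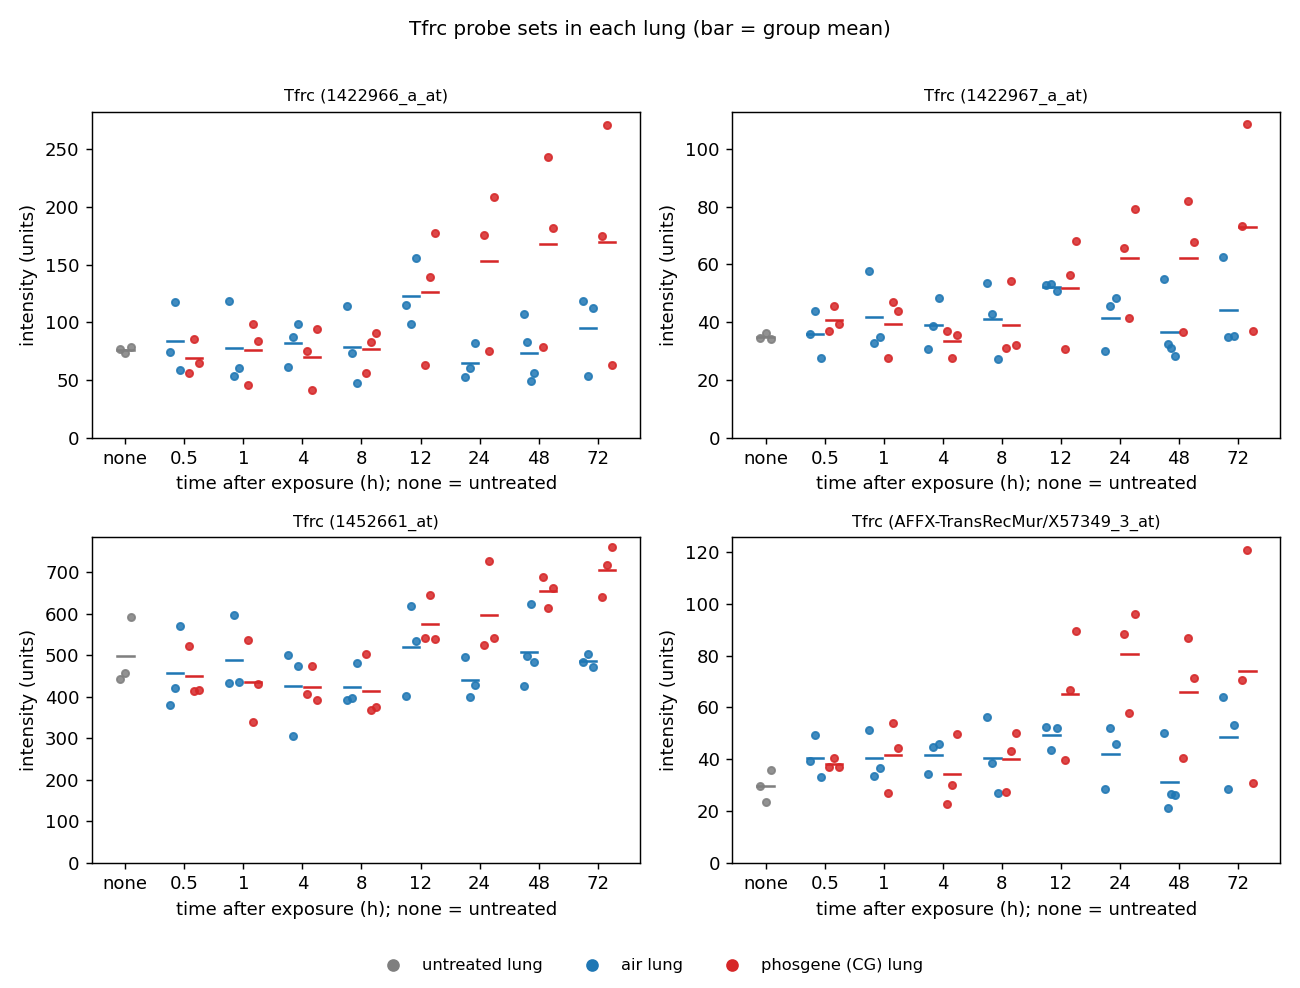
Intensity in units on a linear scale from 0 for each lung, by time in h, for the 3 ordinary Tfrc probe sets and the 3' array control, with untreated lungs in grey, air lungs in blue, phosgene lungs in red and a bar at each group mean. Phosgene lungs of 72 h had 640 to 762 units on 1452661_at, and from 63.25 to 271 on 1422966_a_at.

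Averaged over the 8 times with equal weight, 3 of the 11 probe sets were called, all higher, against 22.2% of all probe sets. The averaged log2 change was 2.27 ± 0.11 (SE) for Hmox1 (limma adjusted p = 7.69e-20), 1.44 ± 0.14 for Blvrb (adjusted p = 2.32e-10) and 0.22 ± 0.05 for Slc40a1 on 1417061_at (adjusted p = 0.00169). Between neighbouring times 0 of 77 differences of the phosgene effect were called in limma, with 8 at an unadjusted p under 0.05, and the shares of all probe sets called for these 7 steps in order were 0%, 0.00442%, 0%, 0.0309%, 0.00442%, 0.0265% and 0%.

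Air exposure alone was set against the untreated lungs, which the phosgene effect does not enter. Of 88 such tests on the members 0 were called in limma, with 5 at an unadjusted p under 0.05, while the shares of all probe sets called at the 8 times in order were 0.177%, 0.0707%, 0.00442%, 0.00442%, 1.11%, 0.0663%, 0.124% and 0.084%. The lowest log2 difference was -0.91 for Blvrb at 0.5 h, and the smallest adjusted p was 0.125 for Hmox1 at 12 h. The F test over the 8 air groups called 0 of the 11 members in limma and 0.592% of all probe sets, and 2 of the 11, both Slc40a1, had an unadjusted p under 0.05 (0.0479 and 0.0347).

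Of the other genes of heme and iron handling and of Hmox1 control, 55 were measured on their brightest probe set, and 18 were called at 1 or more times. Of all 12393 genes, each on its brightest probe set, 15.3% were. Counts of genes called higher at the 8 times in order were 1, 3, 6, 6, 2, 2, 4 and 2, and of genes called lower 0, 0, 1, 4, 1, 1, 5 and 4. The shares called at single times that are given for the members are over all probe sets, dim ones included. They are not on the same basis as these counts, which use the brightest probe set of a gene.

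Among 8 regulators of Hmox1, 1, 3, 4 and 5 rose at 0.5, 1, 4 and 8 h and 0 fell. Maff, a small Maf protein, rose at the first 7 times, with log2 changes from 1.05 to 2.88 and the highest at 8 h (limma adjusted p = 2.97e-11). Its air mean was 6.12 to 15.1 units, below the offset, so its changes depend on the offset. Bach1, the repressor of Hmox1, rose at 1, 4 and 8 h by 0.66, 0.89 and 0.64. Mafg and Hif1a, the hypoxia factor subunit, rose at 4 and 8 h, and Mafk at 1 and 8 h. The others of the 8, Nfe2l2 (which encodes Nrf2), Keap1 and Spic, were not called at any time in limma. The median change of the 8 regulators was 0.65 at 8 h, against -0.05 over all probe sets.

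Of 11 genes of heme and hemoglobin uptake and transport, Slc48a1, a heme transporter, rose by 0.57 at 4 h and 0.53 at 8 h (limma adjusted p = 0.0437 and 0.0485), and Pgrmc1, a heme-binding membrane protein, rose by 0.54 at 4 h. Hp, the hemoglobin scavenger haptoglobin, fell by 0.63 at 8 h and rose by 0.61 at 48 h. Flvcr2, a membrane transporter, fell by 0.45 at 8 h (limma adjusted p = 0.0312). Of 11 genes of iron uptake, Lcn2, a secreted protein that binds iron-carrying siderophores and is made by neutrophils and epithelium, rose from 12 to 72 h with log2 changes of 1.27 at 12 h and up to 2.18 at 48 h. Ltf, lactoferrin, rose by 1.05 at 72 h. Of the 11 neutrophil genes 1 was called higher at 12 h and 0 from 24 h on in limma. Their sums were 1217 to 1407 units in phosgene lungs of 48 h against 653 to 1045 in air, without overlap, and 856 to 1690 at 72 h against 613 to 1063. The part of neutrophils in these 2 changes was not tested.

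Of 7 genes of iron efflux and its control, Bmp6, a growth factor that drives the iron hormone hepcidin in liver, fell at all times from 4 h on, with a log2 change of -0.45 at 4 h and a 2.01-fold lower value at 72 h (limma adjusted p = 3.32e-07 at 72 h). Its fall at 12 h, by 0.50, did not pass without the third phosgene lung of 12 h (adjusted p = 0.0838), while Lcn2 and Maff at 12 h passed without each of the 3 phosgene lungs. Cp, the ferroxidase ceruloplasmin, rose by 0.84 at 48 h, and Neo1, a receptor of the hepcidin pathway, fell by 0.71 (limma adjusted p = 0.0454). Of 8 genes of heme synthesis, Alas2, the first enzyme of the pathway in red cell precursors, fell at 48 and 72 h (log2 changes of -0.91 and -1.87), and Fech, which inserts iron into heme, fell too (-0.78 and -0.72). Uros, an enzyme of the middle of the pathway, fell by 0.33 at 8 h (limma adjusted p = 0.0341). Slc25a37, the mitochondrial iron importer of red cell precursors, fell at the same times (log2 change -0.86 at 48 h; limma adjusted p = 0.0121 at 72 h). Red cell markers moved with these genes, with 3 of 8 called lower at 48 and at 72 h. Alas2 is itself one of the 8. Of 4 genes of iron storage and 2 of iron sensing, 0 were called at any time in limma.

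**Figure D5:**
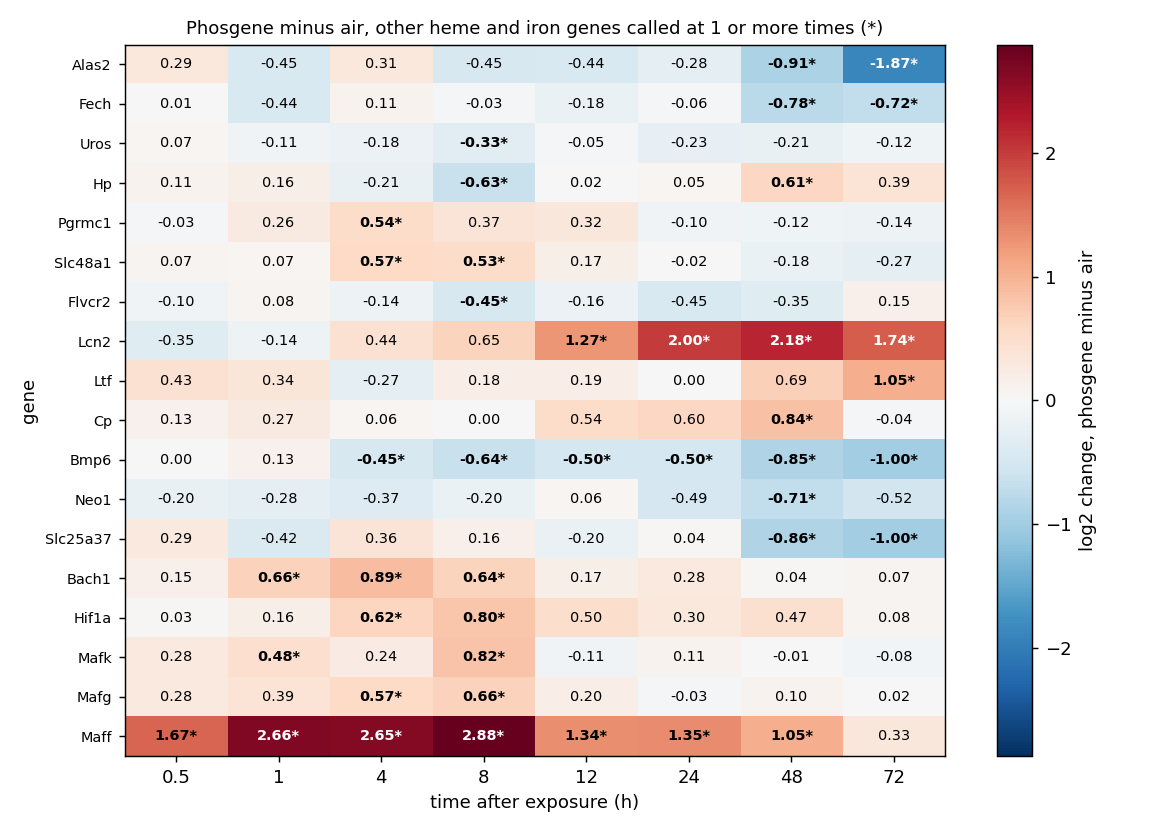
Log2 change in intensity, phosgene minus air lungs, for the 18 other heme and iron genes (rows) called at 1 or more of the 8 times in h (columns), with an asterisk where the adjusted p was under 0.05. Maff reached 2.88 at 8 h, Lcn2 2.18 at 48 h and Alas2 -1.87 at 72 h.

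Genes with a pattern like those of the members were ranked by Pearson's r over the 17 group means of log2 values, among 8222 genes, as a description with no test. The group means share chips and the phosgene contrast. For Hmox1 the highest were Srxn1 (0.95), Epha2 (0.95), Fgfbp1 (0.95), Zfand2a (0.94) and Txnrd1 (0.94), and the lowest Sri (-0.91), Babam1 (-0.90) and Derl3 (-0.88). For Blvrb the highest were Taldo1 (0.97), Gpx2 (0.96), Nqo1 (0.95), F3 (0.95) and Psma7 (0.93), and the lowest Abcg1 (-0.94), Tppp3 (-0.93) and Atp13a2 (-0.91). Between Hmox1 and Blvrb themselves r was 0.64, and between the Slc40a1 probe sets 0.89.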

How the data were processed

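Whole mouse lungs were measured on Affymetrix chips. The deposited value is a linear intensity per probe set and chip, which the authors had scaled to an equal trimmed mean (150.03 to 150.04 on recomputing, with 2% removed at each end). The algorithm is not given in the sources used here. Text files of chip settings, also deposited (unit: other), gave the hybridization day of 97 of 104 chips, chip lots and, on 1 chip, the name of another tissue. Repeat scans were not used here.

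From these, 16 was added to each intensity, log2 was taken, and the 2 chips of a lung were averaged. All 17 groups were fitted with limma 3.58.1 in R 4.3.3, with 1 mean per group, a variance trend and 39.9 degrees of freedom. Contrasts were 2-sided and p-values were adjusted by Benjamini and Hochberg over 22626 probe sets. The 64 array controls stayed out, and no filter was applied. Gene names come from the platform annotation: 20380 tested probe sets have 1 symbol, 691 several and 1555 none, and Ftl1, the ferritin light chain, had no probe set of its own. Log2 changes are on the offset scale and understate those of dim probe sets.

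The members, the pathway and marker lists and the tests were chosen with earlier results of these data known. Every member probe set is named. Of the pathway genes, at most the 6 called genes of largest change per time were eligible, all phosgene lungs beyond all air lungs. Hp, Flvcr2, Uros and Neo1 fall outside this and were named after their values were seen, as were some further times of the others. The code was tested on simulated data. The array number limits the precision. The alternatives changed the offset, normalization, filter, probe set, chip, block, weights, control group and lungs. Figures used Python 3.11.15 and matplotlib 3.10.9.

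The letters A and B number the chips of a lung, not lungs, and for 56 of 104 chips the title gives the other letter than the description, so which chip is A is uncertain.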

Additional observations from a re-analysis of the deposited data

Results flagged for a closer look

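The effect of phosgene on Hmox1 differed between the 8 times (limma F test, adjusted p = 7.82e-10), with log2 changes from 4.46 at 4 h down to 0.44 at 72 h. The effect on Blvrb differed between the times too (limma F test, adjusted p = 0.00235), from 2.80 at 8 h to 0.10 at 72 h. Each group of 4 air lungs at 48 h was also searched for a lung far from the others in the 14 probe sets, and 0 were found. Groups of 3 lungs were not searched in this way.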

How the results depend on the processing

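All 99 log2 changes of the 11 probe sets (8 times and the average) were recomputed under each alternative. For the 14 called changes, 0 of 446 alternatives turned the direction and 437 kept the call. For the 85 changes not called, 207 of 2272 alternatives turned the sign, in 48 of the changes, none larger than 0.53 after turning and the smallest adjusted p was 0.598, so no direction is read from them. The turned values are printed only for changes given singly above, a choice made after they were seen. Blvrb turned at 0.5 h to -0.28 against untreated lungs, and at 72 h to -0.23 on chip B, -0.071 with day as a term, -0.088 with array weights and -0.092 against untreated lungs, while leaving out single lungs gave -0.213 to 0.391.

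Counts of called members that moved by over 1.5 times were these. At 12 h, 2 became 1 with the dim 40% left out, 0 with the time alone and 1 against untreated lungs. At 24 h, 1 became 0 with the dim 40% left out (Blvrb is then not tested), and 2 with the replicate block, with day and with the time alone. At 48 h, 0 became 1 with the replicate block and 2 with day, the title letter and array weights. At 72 h, 0 became 1 with the replicate block and the title letter. The changing effect, 2, became 4 with the replicate block, day and title letter, the average effect, 3, became 5 with day, and air against untreated at 12 h, 0, became 1 with the title letter. Leaving out single lungs gave 0 to 1 at 48 h, where 1422966_a_at of Tfrc was called without phosgene replicate 1 (adjusted p = 0.048).

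The replicate block, day and title letter fits took single chips, with estimated correlations of 0.286, 0.302 and 0.327 shared by all probe sets. Extra calls in these fits are not added support. The cause of these moves was not tested. The day fit used 97 chips. It had no chip of air lung 2 of 72 h, and both chips of air lung 3 were alone on their days. The title letter, the control probe sets and the fit without the chip with another tissue in its settings were added after the data were seen, as were the 12 h fits of the pathway genes. Median centring moved the share of called probe sets that were higher from 57.1% to 83.9% at 4 h, 52.5% to 68.2% at 8 h, 73% to 88.7% at 12 h and 59.8% to 72.8% at 24 h.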

Other observations

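Of the Tfrc probe sets, 1452661_at varied between lungs of the same group in the direction opposite to 1422966_a_at. The group means of log2 values of these probe sets moved together instead, with a Pearson r of 0.88. Those of 1452661_at and 1422967_a_at had an r of 0.87, and neither value was tested. Over the 52 lungs, with each group mean removed, 1422966_a_at and 1422967_a_at had a Pearson r of 0.90 and a Spearman rho of 0.86, and 1422966_a_at and the 3' array control 0.89 and 0.88. Each of these 4 values had a permutation p of 1e-05, the smallest that 100000 resamples can give, and 1.7e-05 after adjustment. Between 1422966_a_at and the brightest Tfrc probe set, 1452661_at, r and rho were -0.50 (permutation p = 2e-04 each, 0.00025 adjusted over 5 relations). Without the 2 lungs farthest from the median, the r values were 0.87, 0.86 and -0.51. The 2 Fth1 probe sets had r = 0.65 and rho = 0.62 (permutation p = 1e-05 each, 1.7e-05 adjusted, r = 0.64 without the 2 farthest lungs). The 2 Slc40a1 probe sets had r = 0.15 and rho = 0.11 (permutation p = 0.3 and 0.4, also after adjustment, r = 0.04 without the 2 farthest).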
